A study of Mus musculus with 2 samples.

Results

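Cytosolic ribosomal protein genes encode the proteins of the large (Rpl) and the small (Rps) subunit of the ribosome. The members were taken by their symbols, as the genes named Rpl or Rps with a number and a short suffix, without pseudogene symbols (-ps). By this rule 79 of the 32285 genes of the count tables were members, 48 of the large and 31 of the small subunit. Ribosomal proteins with other symbols, such as Rplp0, Rplp1, Rplp2, Rpsa, Rack1, Fau, Rpl36al and Rps27rt, do not match the rule and are given below as a separate list. Rpl29 and Rps29 were chosen by their measured levels, the ratio of mutant over WT UMIs per library total, so their values in that contrast, and those of the other members in it, are a description.

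The samples were 2 droplet scRNA-seq libraries of the temporomandibular joint (TMJ) of C57BL/6 mice, aged 8 to 10 weeks by the labels and female by the study's text. Both joints had been injected with complete Freund's adjuvant (CFA), which induces joint inflammation. One library came from WT mice and the other from mice labelled Prox1 mutant, which the study describes as Prox1+/-, heterozygous in every cell for the loss of a transcription factor of lymphatic endothelium. With 1 library per genotype there was no replicate and no test was made, the genotype cannot be told apart from the library, and every interval below covers counting error only. The number of mice pooled per library is not given in the sources used here.

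Each ribosome carries 1 copy of nearly every ribosomal protein, and cells make these proteins in balance, largely by adjusting the translation of their mRNAs. These mRNAs are short and abundant, and many begin with a run of pyrimidines, the TOP motif, through which growth signals act on their translation. Dividing and immature cells, which build many ribosomes, are known for a high share of such mRNAs. Granulocytes and late erythroblasts are known for a low one.

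With a minimum of 500 genes and less than 10% of UMIs on mitochondrial genes, the WT library kept 4352 cells and 48366846 UMIs (unique molecular identifiers, each standing for 1 captured transcript), and the mutant library 5757 cells and 54330221 UMIs. The median depth was 6997 and 4848 UMIs per cell. Over all kept cells, Prox1 stood at 11.6 UMIs per 1000000 UMIs (CPM) in WT against 5.80 CPM in mutant cells (563 and 315 UMIs). The mix of cell types differed between the libraries, with 909 and 484 endothelial cells in the types compared below. Prox1 was not compared within a cell type. The libraries shared 10 barcodes of all deposited and 4 of the kept cells. Clustering without the ribosomal protein genes gave 44 clusters, and 38 were named from 3 to 10 raised marker genes. Many mutant cells lay in clusters with few WT cells: clusters with at least 85% of their cells from 1 library took 37.4% of the mutant cells and 4.00% of the WT cells. Most of these clusters were shallow in the mutant library. The largest, named erythroid (617 mutant cells), had a median depth of 2442 there, and Igkc, Hba-a2 and Jchain led its genes. The next, named macrophages (398 mutant cells), had 1626.5, led by Igkc and Igha. Another erythroid cluster was deeper, with 8711. Whether these clusters held cells missing from WT or barcodes of mostly free RNA was not tested. The clusters mostly of 1 library were left out of the 13 cell types compared, which held 83.3% of WT and 53.0% of mutant cells. The log2 ratios of Rpl29 and Rps29 over all kept cells are given with and without these clusters.

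The coding sequences of the members on which the differences turned are shown first. Of Rpl29, a basic protein of the large subunit that is also known to bind heparin, coding bases 284 to 483 are given, and capitals mark the bases found in no 60-base stretch shared with the transcript of another annotated gene. The gene lies at chr9:106429454-106431568 on the plus strand of GRCm38 and its transcript has 4 exons.
Rpl29: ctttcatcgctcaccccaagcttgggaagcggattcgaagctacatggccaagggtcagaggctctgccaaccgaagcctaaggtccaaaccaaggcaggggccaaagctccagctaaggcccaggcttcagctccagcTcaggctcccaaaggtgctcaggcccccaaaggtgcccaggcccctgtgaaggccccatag
Of its 483 coding bases, 482 lay in a 60-base stretch found in another gene as well. Over the whole transcript, 73.5% of the 60-base stretches occurred in transcripts of 61 other genes of GENCODE M21, of which only Gm3550 is among the genes counted. Rpl29 was not alone among the members in this: 76 of 79 shared at least 1 such stretch, with a median of 52.8% of the transcript. The share over all genes was not taken, so nothing is read from this count about the members as a set.

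The next sequences are of short members, with start and stop codon in capitals. They are shown because members under 100 residues had a higher median log2 ratio of mutant over WT than the longer ones. Not every short member was higher, and Rpl41, the shortest, lay below 0 (-0.13). Rpl38 is at chr11:114668524-114672331 on the plus strand, Rps28 at chr17:33819027-33824562 on the minus strand, Rpl39 at chrX:37082520-37085402 on the minus strand and Rpl41 at chr10:128548114-128549305 on the minus strand of GRCm38.
Rpl38: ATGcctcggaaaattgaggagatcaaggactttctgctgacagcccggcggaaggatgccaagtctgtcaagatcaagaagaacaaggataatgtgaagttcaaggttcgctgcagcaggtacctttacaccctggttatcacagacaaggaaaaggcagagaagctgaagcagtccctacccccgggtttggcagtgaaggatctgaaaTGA
Rps28: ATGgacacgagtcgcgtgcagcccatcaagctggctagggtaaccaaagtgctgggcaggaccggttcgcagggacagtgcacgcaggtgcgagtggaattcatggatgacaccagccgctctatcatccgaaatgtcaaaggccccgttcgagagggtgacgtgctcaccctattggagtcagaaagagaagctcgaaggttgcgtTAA
Rpl39: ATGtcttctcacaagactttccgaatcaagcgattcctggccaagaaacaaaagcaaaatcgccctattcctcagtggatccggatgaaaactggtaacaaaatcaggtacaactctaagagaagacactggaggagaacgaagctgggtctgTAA
Rpl41: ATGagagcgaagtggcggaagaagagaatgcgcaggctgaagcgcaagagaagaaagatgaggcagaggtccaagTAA
Rpl41 encodes 25 residues, Rpl39 51, Rps29 56, Rps28 69 and Rpl38 70, against 160 for Rpl29.

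The TOP motif was looked for as a run of at least 7 C or T on the sense strand between 20 bases before and 30 bases after the start site, in the RefSeq promoter table for GRCm38.p6. That table held 60 of the members, without Rpl29 and Rps29. Such a run was found in 39 of the 60 (65%) and in 31.9% of all 27025 genes of the table. The median longest run was 9 bases in members and 5 in all genes. The windows below run from 10 bases before to 20 after the start, with the longest run in capitals, for 3 members with a higher CPM in the mutant library (Rpl38, Rps27, Rpl39) and 2 with fewer (Rps12, Rpl22l1).
Rpl38, chr11:114668570-114668599, plus strand: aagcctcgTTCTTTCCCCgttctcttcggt
Rps27, chr3:90213629-90213658, minus strand: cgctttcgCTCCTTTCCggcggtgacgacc
Rpl39, chrX:37085203-37085232, minus strand: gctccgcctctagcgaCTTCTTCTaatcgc
Rps12, chr10:23787190-23787219, minus strand: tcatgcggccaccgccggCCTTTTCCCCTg
Rpl22l1, chr3:28805498-28805527, plus strand: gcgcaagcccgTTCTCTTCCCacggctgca
The run occurred in windows of members on either side of an equal level, and each window shown holds one. Members on either side also lacked it. The longest run was 4 bases in Rps28 and 6 in Rpl37, both higher in the mutant library, and 6 in Rps13, which was lower. A run of these letters is a description of the window and not a mapped start of translation control.

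The ribosomal protein genes took 7.39% of the WT UMIs and 6.02% of the mutant UMIs (95% intervals of 7.38 to 7.39 and 6.02 to 6.03), with medians over cells of 4.74% and 4.13%. Of the 79 members, 78 had UMIs, and these 78 also passed the minimum of 200 UMIs over both libraries. Rpl10l, a testis-limited copy of Rpl10, had 0 UMIs in both libraries, which allows up to 0.0620 CPM in WT against 0.0552 CPM in mutant cells. Among the members with the most WT UMIs were Rpl23 with 1970 CPM, Rps12 with 1873 CPM, Rpl13 with 1696 CPM and Rps20 with 1682 CPM, all structural proteins of their subunits. The fewest UMIs were in copies of other members: Rpl3l had 2.03 CPM, Rpl39l 3.16 CPM, Rpl7l1 36.7 CPM and Rps27l 223 CPM in WT. The 78 members had a median of 939 CPM in WT against 768 CPM in mutant cells.

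Rpl29 was the member with the lowest level in the mutant library relative to WT. It had 27909 UMIs in WT, 577 CPM (570 to 584), and 766 UMIs in the mutant library, 14.1 CPM (13.1 to 15.1). The WT level was 40.9 times the mutant level, a log2 ratio of mutant over WT of -5.35 (-5.46 to -5.25). Without the clusters mostly of 1 library the log2 ratio was -5.32. These values count the UMIs assigned to Rpl29, and whether its sequence in the mutant mice matches the reference was not tested. Rpl29 thus lay below the median of the members (939 CPM) but among the ubiquitous ones in WT. In the mutant library it lay below every detected member but the rare copies Rpl3l (2.63 CPM) and Rpl39l (0.957 CPM).

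Rps29, a zinc-binding protein of the small subunit, stood at the other end. It had 36734 UMIs in WT, 759 CPM (752 to 767), and 101187 UMIs in the mutant library, 1862 CPM (1851 to 1874), a log2 ratio of 1.29 (1.28 to 1.31). Without the clusters mostly of 1 library its log2 ratio was 1.37. Rps29 was the most abundant member of the mutant library.

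**Figure D1:**
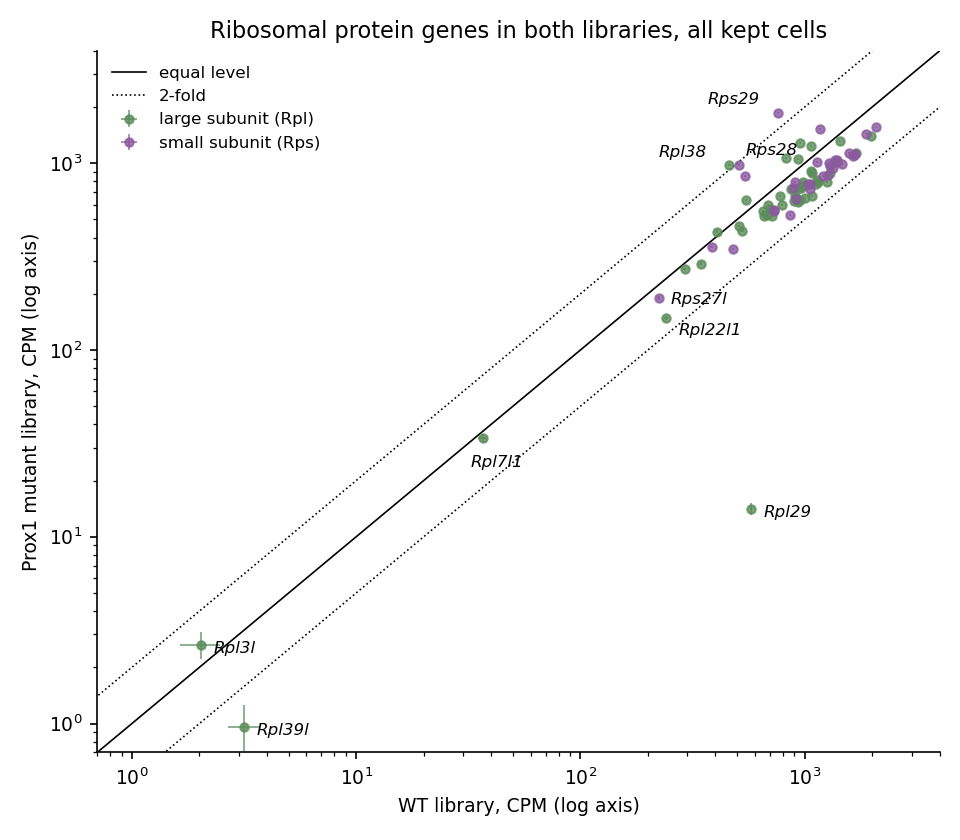
Level of the 78 ribosomal protein genes with at least 200 UMIs in the WT library (x axis) and the Prox1 mutant library (y axis), in CPM over all kept cells on log axes, with exact Poisson 95% intervals that are mostly smaller than the points. Most members lie just below the line of equal levels, Rpl29 lies far below it at 577 and 14.1 CPM, and Rps29 and Rpl38 lie above the upper 2-fold line.

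Of the 78 members, 66 had a log2 ratio below 0 and 12 above it, where 5751 of all 13696 genes tested lay above 0. Their median was -0.38 (quartiles of -0.52 and -0.20), beside -0.07 over the 13696 genes with at least 200 UMIs. Large-subunit members had a median of -0.35 and small-subunit members of -0.42. Members at least 2-fold higher in the mutant library were 2 of 78, Rps29 and Rpl38, where 3.28% of all genes were called. Members at least 2-fold lower were also 2 of 78, Rpl29 and Rpl39l, where 3.67% of all genes were called, and with cells of at least 1000 genes, without the highest doublet scores, with thinned cells or with a minimum of 1000 UMIs only 1 was. Both shares were near those of all genes, and the rule used this contrast, so nothing is read from them. Malat1, a nuclear RNA, had 22299 CPM in WT against 26733 CPM in mutant cells, and was higher in the mutant library in 13 of 13 cell types. These included erythroid cells, whose pooled member share was higher in the mutant library (7.32% and 7.77%). Each erythroid cluster compared was lower there, with 10.9% and 10.2% in erythroblasts with histone genes and 0.929% and 0.758% in late erythroblasts. The erythroblasts with histone genes were 134 of 288 erythroid cells in WT and 288 of 505 in the mutant library. With the clusters mostly of 1 library kept, the pooled share was lower in 13 of 13 types. Neutrophils, with the lowest ratio of mutant over WT share (0.641), had 12063 and 13248 CPM of Malat1. The part of Malat1 in the lower member level was not tested.

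The members closest to Rps29 were further short proteins. Rpl38, a large-subunit protein known for its part in Hox mRNA translation and axial patterning, had 461 CPM in WT against 975 CPM in mutant cells, a log2 ratio of 1.08 (1.06 to 1.105). Rps28, of the small subunit, had 509 and 972 CPM, a log2 ratio of 0.93 (0.91 to 0.95). Rps27, a zinc-finger protein of the small subunit, had 542 and 851 CPM (0.65), and Rpl37, of the large subunit, had 954 and 1287 CPM (0.43). These 4 and Rps29 were the 5 members with the highest log2 ratio, and all 5 encode fewer than 100 residues.

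At the other end, the members next to Rpl29 differed far less. Rpl39l, a copy of Rpl39 known from testis, had 153 UMIs in WT (3.16 CPM) and 52 in the mutant library (0.957 CPM), a log2 ratio of -1.72 (-2.21 to -1.26). Rps13 had 858 and 525 CPM (-0.71), Rpl22l1, a copy of the RNA-binding Rpl22, had 241 and 148 CPM (-0.70), and Rpl17 had 1072 and 669 CPM (-0.68). The counting interval of Rpl29 lay below those of the next lowest members. Rpl29 was chosen by its value in this contrast, so the gap is a description.

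Sorted by the length of the protein, the 11 tested members under 100 residues had a median log2 ratio of 0.38, with 8 of 11 above 0, and the 67 longer members had a median of -0.42, with 4 of 67 above 0. Of all 13696 genes tested, 5751 were above 0. The short members below 0 were Rpl39l (-1.72), Rps27l (-0.23) and Rpl41 (-0.13), and the longer members above 0 were Rpl3l, Rpl36, Rpl6 and Rpl35. The 276 other genes under 100 residues had a median of -0.28 and the 12527 longer ones a median of -0.07, so among the other genes the short ones were not the higher ones. Other genes with a transcript under 500 bases (121) had a median of 0.06, and those of 500 to under 1000 bases (835) of -0.30. The 16 members with a transcript under 500 bases had a median of -0.12 and the 45 of 500 to under 1000 bases of -0.46. Nuclear genes of the respiratory chain, another set of short abundant mRNAs, had medians of -0.03 under 100 residues (23 genes) and -0.32 above (50 genes). Over the 76 members without Rpl29 and Rps29, Spearman's rho of the log2 ratio was -0.26 with the number of residues and -0.44 with the WT level, as a description across genes of the same 2 libraries. The WT level is also the denominator of the ratio, so a negative rho with it can come from the shared count alone. The 4 members on chromosome X had a median of -0.28.

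**Figure D2:**
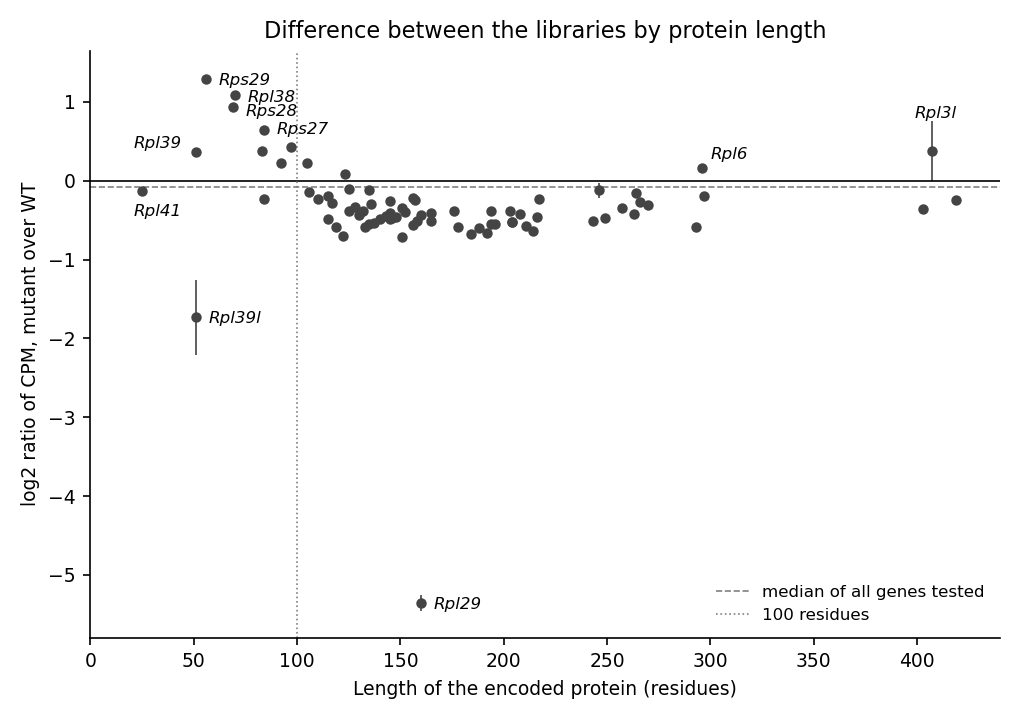
Log2 ratio of CPM, mutant over WT, of the 78 members (y axis) against the length of the encoded protein in residues (x axis), with exact 95% intervals, the median of all genes tested (dashed, -0.07) and 100 residues (dotted). To the left of 100 residues 8 of 11 members lie above 0, to the right only 4 of 67 do, and Rpl29 stands apart at -5.35.

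Counts of some members touch those of near copies. Gm10076, which shares a 60-base stretch with Rpl41, had 8149 UMIs in WT and 33758 in the mutant library, a log2 ratio of 1.88 (1.85 to 1.92). Rpl41 itself, the shortest member, had 1431 and 1309 CPM (-0.13), and Rpl41 with Gm10076 had 1599 and 1931 CPM, a log2 ratio of 0.27, so the direction of Rpl41 depended on its copy. Gm3550, the copy of Rpl29, had 93 and 150 UMIs, and Rpl29 with Gm3550 had a log2 ratio of -5.10. Gm10260, a copy of Rps18, was one of the 7 tested genes with a log2 ratio below that of Rpl29, with 198 UMIs in WT and 5 in the mutant library (-5.48), whereas Rps18 had 729 and 552 CPM (-0.40). The levels of Rpl29, Rpl41 and Rps18 are uncertain to the extent that reads can be assigned to either gene of such a pair.

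The other 6 genes with a lower log2 ratio than Rpl29 were no ribosomal protein genes: Gm17167, Calca, Scn10a, Gm35082, Ccl1 and Cstdc5. The highest in WT was Calca, which encodes the neuropeptide CGRP, with 1881 UMIs in WT and 15 in the mutant library. Of the 195 genes with at least as many WT UMIs as Rpl29, 10 others were at least 2-fold lower in the mutant library, led by the cartilage collagen Col2a1 (622 and 40.1 CPM, -3.96) and the bone matrix gene Ibsp (1174 and 84.3 CPM, -3.80). The 17 tested genes within 500000 bases on either side of Rpl29 on chromosome 9 had log2 ratios from -1.32 (Dock3) to 0.64 (Wdr82), with a median of -0.16. The tested genes next to Rpl29 were lower in the mutant library, by far less than Rpl29: Dusp7 on one side had -0.62, and Abhd14a, Abhd14b, Pcbp4 and Parp3 on the other had -1.06, -0.95, -0.63 and -0.34. Beyond Dusp7, Poc1a was higher with 0.15, and beyond Parp3, Rrp9 had -0.12.

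The remaining Rpl29 UMIs of the mutant library were spread thinly. They lay in 564 of 5757 cells (9.80%, exact interval of 9.04 to 10.6), of which 434 held exactly 1 UMI and 35 held at least 3. The highest count in a mutant cell was 18 UMIs, against 189 in a WT cell. In WT 3053 of 4352 cells (70.2%, 68.8 to 71.5) had an Rpl29 UMI. With each cell thinned to 2000 UMIs, 48.7% of 3843 WT cells and 2.23% of 4488 mutant cells had one. No cell type is known to lack Rpl29, so the share that free RNA gives could not be read from such a type. Barcodes that did not pass the cell filter held 89.1 CPM of Rpl29 in WT and 1.48 CPM in the mutant library.

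By cell type, the Rpl29 level in WT was 1282 CPM (1237 to 1328) in granulocyte-monocyte progenitors, the highest of the 13 types. B cells with 1032 CPM and chondrocytes with 956 CPM followed, with intervals that overlapped each other. Muscle satellite cells with 744 CPM and T cells with 728 CPM also overlapped, as did T cells and erythroid cells with 651 CPM. Macrophages with 555 CPM, mesenchymal cells with 540 CPM and endothelial cells with 530 CPM lay within each other's intervals or next to them, and monocytes and inflammatory macrophages followed with 486 CPM. Smooth muscle cells and pericytes with 359 CPM and neutrophils with 350 CPM overlapped, and Schwann cells were lowest with 232 CPM (210 to 255). The types at both ends of this order were also those with the highest and the lowest ribosomal protein share in WT, given below.

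In the mutant library Rpl29 lay between 3.47 CPM (1.79 to 6.06) in neutrophils and 23.7 CPM (17.9 to 30.8) in granulocyte-monocyte progenitors. No mutant type came near any WT type: the highest mutant level and the lowest WT level were 23.7 and 232 CPM. The log2 ratio ran from -6.66 (-7.62 to -5.84) in neutrophils to -4.72 (-4.99 to -4.46) in mesenchymal cells, folds of 101 and 26.3. The neutrophil value rests on 12 mutant UMIs. It leaves out a cluster mostly of 1 library with 321 mutant neutrophils and 12.9 CPM of Rpl29 in them. With the clusters mostly of 1 library kept, the log2 ratio of the types ran from -5.86 to -4.74. Without those clusters, Rpl29 was below the lowest other member in 13 of 13 types, where that lowest member lay between -1.33 and -0.33. Over the 25 clusters with at least 30 cells in each library the log2 ratio of Rpl29 ran from -6.68 to -3.65. In mutant neutrophils, 0 of 296 thinned cells had an Rpl29 UMI, which allows a share of up to 1.01%.

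Rps29 was higher in the mutant library in each of the 13 types. Its WT level ran from 387 CPM in Schwann cells to 1528 CPM in granulocyte-monocyte progenitors, and its mutant level from 912 to 3715 CPM in the same types. The log2 ratio was lowest in T cells (1.08, 0.92 to 1.24) and highest in erythroid cells (1.66, 1.60 to 1.72). Rps29 had a higher log2 ratio than every other member in 12 of 13 types, and in T cells Rpl38 was higher. Leaving Rps29 aside, Rpl38 was the highest member in 12 of 13 types. Without Rpl29 and Rps29, members under 100 residues had a higher median than the longer ones in each type, by 0.73 in monocytes and inflammatory macrophages to 0.98 in erythroid cells. The median of the members other than Rpl29 and Rps29 was below that of all genes in 13 of 13 types. It ran from -0.76 in neutrophils to -0.00 in erythroid cells, where all genes had a median of 0.27. The erythroid values, also that of Rps29, pool clusters with unlike ribosomal protein shares and a different mix in each library, given below.

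**Figure D3:**
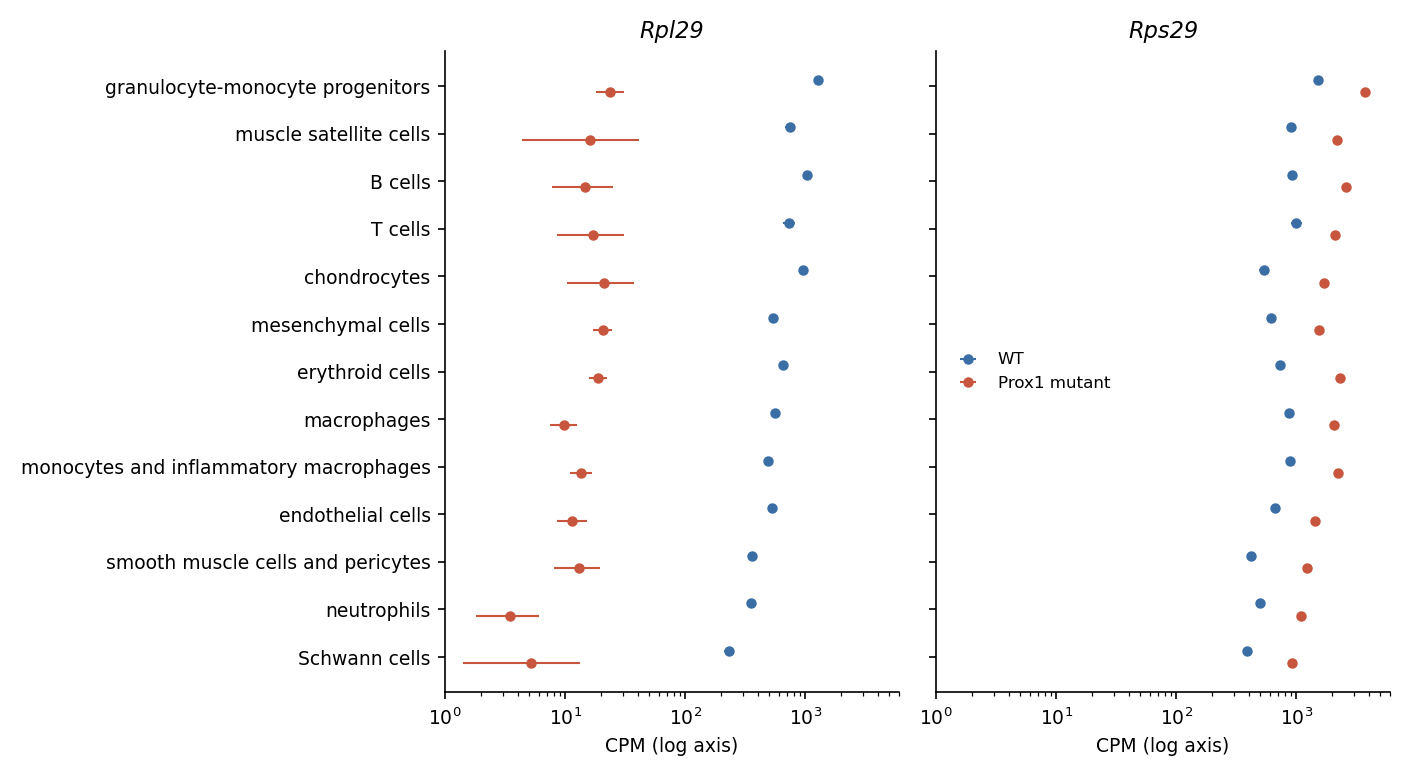
Levels of Rpl29 (left) and Rps29 (right) in CPM on log axes in 13 cell types of the WT and the Prox1 mutant library, with exact Poisson 95% intervals. The cell types are sorted by their ribosomal protein share in WT. For Rpl29 the 13 mutant levels (3.47 to 23.7 CPM) lie apart from the 13 WT levels (232 to 1282 CPM), and for Rps29 the mutant level lies above the WT level in every type.

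The share of all UMIs that fell on ribosomal protein genes differed strongly between cell types. Granulocyte-monocyte progenitors, proliferating precursors of neutrophils and monocytes, had the highest pooled share of the 13 types in both libraries, 15.6% in WT and 11.6% in the mutant library. Muscle satellite cells, the stem cells of muscle, followed with 14.5% and 10.1%, and B cells, whose largest WT cluster had the precursor genes Vpreb3 and Igll1 among its leading genes, with 11.3% and 9.24%. Different clusters held most B cells of each library: that precursor cluster held 131 of 147 WT and 51 of 120 mutant cells, with 11.7% and 10.1%, and the cluster with Ms4a1 and Ighd held 16 and 69 cells, with 7.03% and 8.25%. Schwann cells with 3.75% and 2.90% and neutrophils with 3.97% and 2.55% were at the low end. By these pooled shares the same types stood at the top and at the bottom in both libraries. The order at both ends differed by the median over cells. Muscle satellite cells were then highest, with 15.7% in WT and 10.9% in the mutant library, and erythroid cells lowest, with 1.03% and 1.35%.

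T cells had 9.20% and 8.28%, chondrocytes 9.19% and 7.04%, mesenchymal cells 7.80% and 6.36%, and macrophages 6.91% and 5.36%. Monocytes and inflammatory macrophages had 6.53% and 5.90%, endothelial cells 6.27% and 4.47%, and smooth muscle cells and pericytes 4.61% and 3.86%. The share was lower in the mutant library in 12 of 13 types, with ratios of mutant over WT from 0.641 in neutrophils. A neutrophil cluster mostly of 1 library, left out here, had 7.27% in 50 WT cells and 5.40% in 321 mutant cells. Erythroid cells were the exception with 7.32% and 7.77%, a ratio of 1.06, but with the clusters mostly of 1 library kept the share was lower in 13 of 13 types. Without those clusters erythroid cells were made of 2 unlike clusters: erythroblasts with histone genes among their leading genes had 10.9% in WT and 10.2% in the mutant library, and late erythroblasts 0.929% and 0.758%. Both of these clusters were thus lower in the mutant library, while the erythroblasts with histone genes were 134 of 288 erythroid cells in WT and 288 of 505 in the mutant library.

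The same contrast between immature and mature cells lay within the granulocyte line. Neutrophils with granule genes such as Camp and Ngp had 4.45% in WT and 2.88% in the mutant library, and neutrophils with Cstdc4 and Stfa2l1 had 2.72% and 1.77%, against 15.6% and 11.6% in the progenitors. Median depth fell in the same order, with 15457 and 13408 UMIs per cell in the progenitors. The neutrophils with Camp and Ngp had 11562 and 12340, and those with Cstdc4 and Stfa2l1 had 2873 and 4710. Within the endothelium, the cluster with Selp and Plvap, genes of venous vessels, had 8.65% and 6.48%, and the cluster with Gpihbp1 and Car4, genes of capillaries, had 4.46% and 2.75%. These clusters differed in depth, with medians of 13253.5 and 14238 UMIs per cell in the first and 4075 and 5535.5 in the second. An unnamed shallow cluster with both Gpihbp1 and Plvap among its leading genes had 17.5% and 7.56%. The median over single T cells was 6.58% in WT (quartiles of 1.12% and 9.14%) and 1.86% in the mutant library (0.638% and 10.0%), so T cells varied widely in both libraries. Chondrocytes differed in depth, with medians of 32169 UMIs per cell in 31 WT cells and 2939 in 99 mutant cells.

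**Figure D4:**
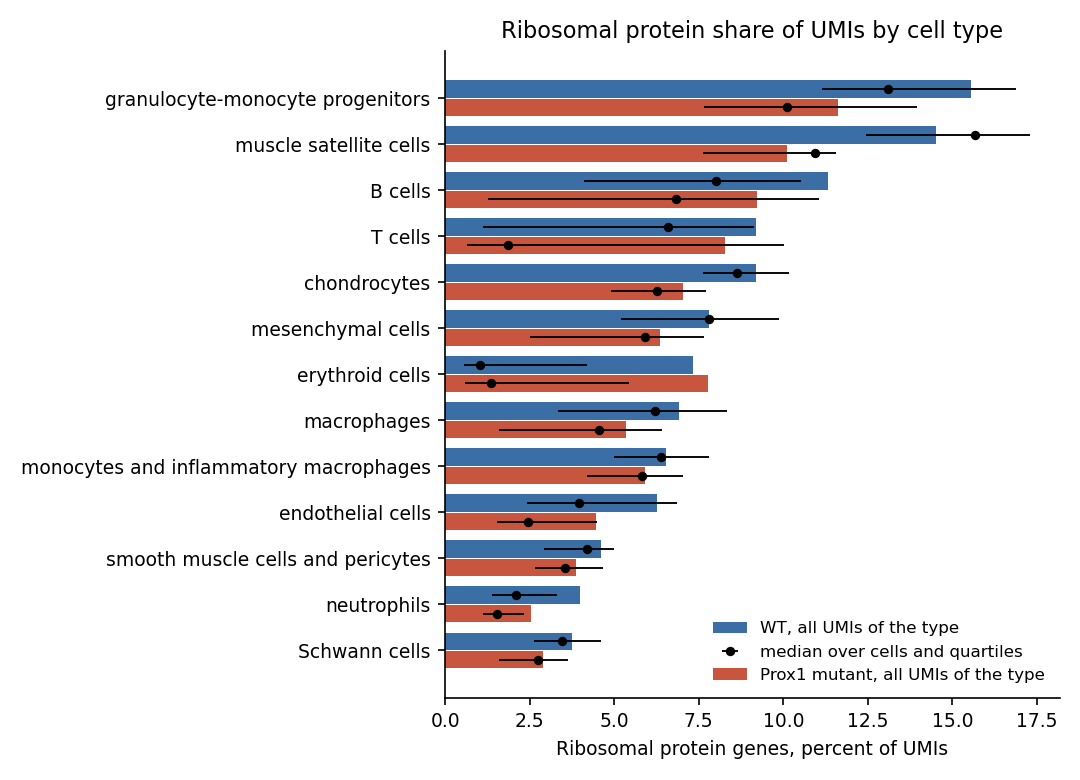
Ribosomal protein genes as percent of all UMIs (x axis) of 13 cell types in the WT and the Prox1 mutant library. Bars give the pooled share, and points with lines give the median over cells with its quartiles. By the bars, granulocyte-monocyte progenitors are highest (15.6% and 11.6%), Schwann cells and neutrophils are lowest, and the mutant bar is the shorter one in 12 of 13 types. By the medians, muscle satellite cells are highest and erythroid cells lowest.

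Beyond the total, the cell types differed in the make-up of their ribosomal protein UMIs, taken as each member's UMIs per 1000 member UMIs and set against all kept cells of the same library. These differences were small: over the 73 members with at least 100 UMIs in every type in WT, the median SD over types was 0.20 on the log2 scale. The 6 members with the largest SD were Rps29, Rps9, Rpl3, Rpl41, Rpl4 and Rps27a, with SDs of 0.37, 0.36, 0.33, 0.32, 0.30 and 0.30. Rpl6 with an SD of 0.09 and Rps3 with 0.11 had the smallest.

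Over the members, the deviations had their largest SD of the 13 types in neutrophils, 0.31 in WT and 0.40 in the mutant library. Schwann cells had 0.24 and 0.26, and muscle satellite cells 0.27 and 0.24. In neutrophils Rps9, a small-subunit protein, took a larger part than in all cells, by 0.85 on the log2 scale in WT and 1.07 in the mutant library, as did Rps27a, which is made as a fusion with ubiquitin, by 0.79 and 0.82. Rpl3, which lies at the peptidyl transferase centre, took a smaller part there, with deviations of -0.73 and -0.90. In Schwann cells Rpl3 took a larger part, by 0.68 and 0.73, and Rpl4, which lines the exit tunnel, by 0.37 and 0.51. In muscle satellite cells Rpl41 took a smaller part, with deviations of -0.96 and -0.81. These deviations had the same sign in both libraries.

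Rps29 took its largest WT part in monocytes and inflammatory macrophages (0.41, and 0.29 in the mutant library, but 0.13 in WT with types taken from the markers of each cell) and its smallest in chondrocytes (-0.82, and -0.37). Rpl29 took 7.81 of every 1000 member UMIs in WT, from 5.13 in muscle satellite cells to 10.4 in chondrocytes, an SD of 0.26 that placed it at rank 14 of the 73. Its WT make-up was thus within the range of the other members. Set side by side, the deviations of a type in WT and in the mutant library had Spearman correlations over 72 to 75 members between 0.475 in chondrocytes, with 31 WT cells, and 0.969 in endothelial cells, with a median of 0.849. The points are genes of the same libraries and share the base composition of each gene, so this is a description.

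**Figure D5:**
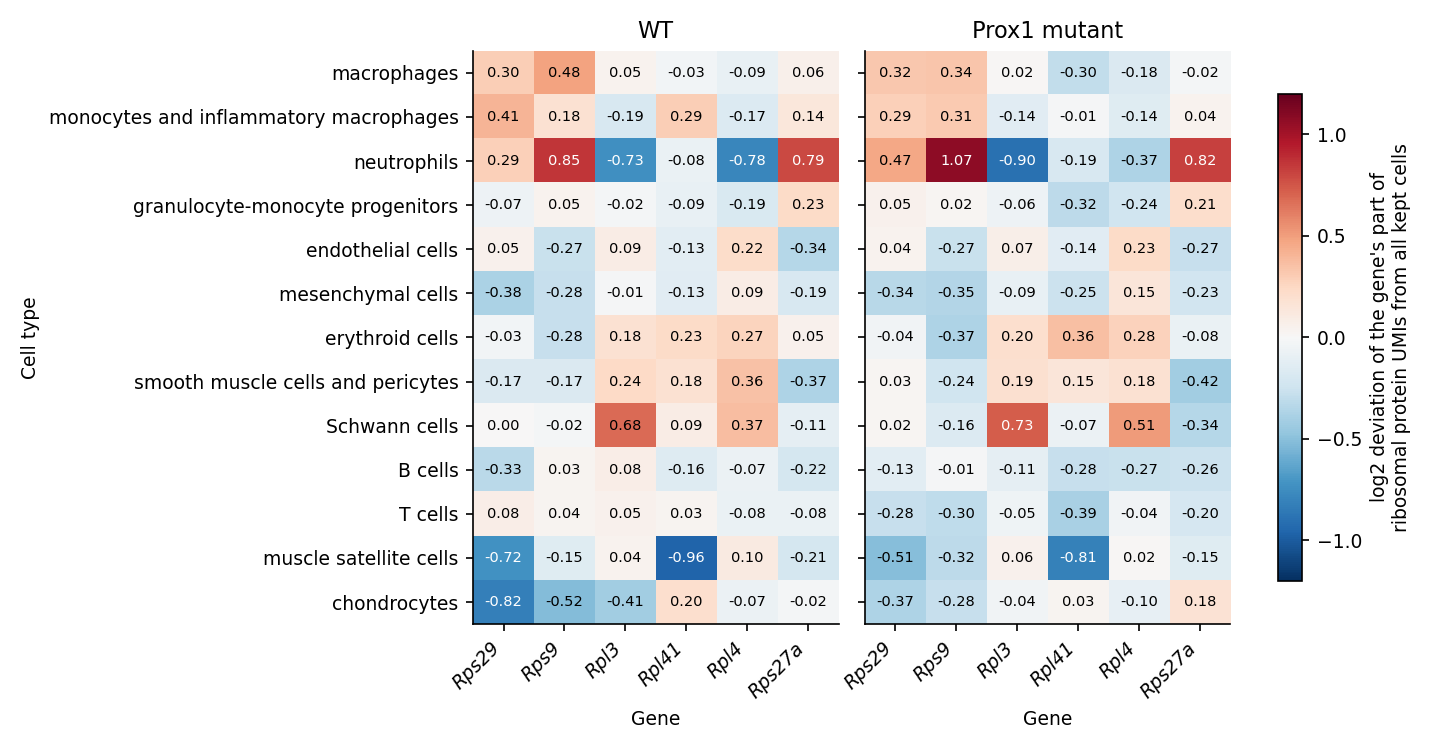
Deviation of 6 members in 13 cell types from all kept cells of the same library, as log2 of their UMIs per 1000 ribosomal protein UMIs, for WT (left) and Prox1 mutant (right). Red marks a larger and blue a smaller part. Rps9 and Rps27a are high and Rpl3 low in neutrophils, and Rpl3 is high in Schwann cells, in both libraries.

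Copies of ubiquitous members differed by cell type as well. Rpl22l1 took 26.8% of the UMIs of the pair with Rpl22 in WT and 22.1% in the mutant library. Its part was largest in smooth muscle cells and pericytes, 47.5% and 41.4%, and smallest in monocytes and inflammatory macrophages, 15.7% and 14.0%, and it was smaller in the mutant library in 12 of 13 types. Rps27l, a copy of Rps27 known as a target of p53, took 29.1% and 18.3% of its pair, with the largest part in monocytes and inflammatory macrophages, 39.9% and 24.99%. Its part was smaller in the mutant library in 13 of 13 types, where Rps27 itself was higher. Rpl7l1, a copy of Rpl7 known from ribosome assembly, took 3.62% and 4.11%.

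The tissue-limited copies were rare. Rpl39l was highest in chondrocytes, with 56 UMIs (58.0 CPM, 43.8 to 75.3) in 31 WT cells and 6 UMIs (11.4 CPM, 4.17 to 24.7) in 99 mutant cells, and mesenchymal cells had 50 and 22 UMIs. It had no UMI in Schwann, erythroid, B, T or muscle satellite cells of either library. Rpl3l, a copy of Rpl3 known from heart and skeletal muscle, had 1 UMI in muscle satellite cells of WT and 0 in the mutant library. Its UMIs were instead found in monocytes and inflammatory macrophages (34 and 44), in neutrophils (17 and 38) and in B cells (11 and 7). In neutrophils this came to 3.04% and 8.33% of the pair with Rpl3.

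Genes of the same pathway outside the symbol rule were taken as lists. Among all genes tested, 3.28% were at least 2-fold higher and 3.67% at least 2-fold lower in the mutant library. Nothing is therefore read from counts of 0 past 2-fold in lists this short. The 9 ribosomal proteins with other symbols had a median log2 ratio of -0.23, with 8 below 0 and 0 at least 2-fold apart, from Rps27rt (-0.56) and the stalk protein Rplp0 (-0.45) to Rplp2 (-0.03), also of the stalk. The 14 tested genes of elongation and other TOP mRNAs had a median of -0.33, with 12 below 0 and 0 past 2-fold, from Btf3 (-0.46) and the elongation factor Eef1b2 (-0.45) to Eef1g (0.00) and the poly(A)-binding protein Pabpc1 (0.16). The median of the members was -0.38 and that of all genes -0.07.

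The 24 genes of ribosome assembly had a median of 0.04, with 12 on each side of 0 and 0 past 2-fold, from the nucleolar protein Npm1 (-0.35) and Nhp2 (-0.30) to the rDNA transcription factor Ubtf (0.30) and the RNA polymerase I subunit Polr1a (0.48). The 14 genes that control ribosomal protein synthesis had a median of -0.00, with 7 on each side of 0 and 0 past 2-fold, from Myc (-0.67) and the translation repressor Eif4ebp1 (-0.52) to the mTORC1 subunit Rptor (0.21) and its inhibitor Tsc1 (0.25). These lists lay near the median of all genes, -0.07. The 78 mitochondrial ribosomal protein genes had a median of -0.23.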

How the data were processed

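Cells from digested TMJ tissue were captured in droplets with a 10x Genomics 3' kit, named v2 in the labels and v3.1 in the study's methods. The authors aligned the reads to GRCm38 (mm10) in Cell Ranger 7.0.1, and the deposited values are UMI counts per gene and called barcode, not normalized. Intron counting and any removal of doublets are not given in the sources used here. The members and gene lists were chosen with earlier results of these data known.

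Barcodes with 500 or more genes and less than 10% of UMIs on mitochondrial genes were taken as cells, normalized with SCTransform 0.4.2, integrated by anchors and clustered in Seurat 5.3.0 (R 4.3.3) on 200 principal components at resolution 1.5, with settings of the study's methods, but without the ribosomal protein genes. A marker was raised in a cluster when its CPM plus 5 was at least 2 times that of all remaining cells and a UMI was seen in 10% or more of the cluster. A cluster was named from at least 3 raised markers, by the list with the most markers among its 10 leading genes, unless markers of another type led or it was shallow. The limit of 85% for clusters mostly of 1 library was set after the clusters were seen. Cell types were compared with at least 30 cells in each library.

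UMIs were summed per gene over the kept cells or a cell type and scaled to CPM. Intervals at 95% are Poisson for CPM, Clopper-Pearson for shares and exact conditional intervals for ratios (scipy 1.17.1), and cover counting error only. The limit of a count of 0 is 3 counts, of UMIs or of cells. Ratios were taken for genes whose UMIs in both libraries summed to 200 or more. Gene models, coding sequences and shared 60-base stretches came from GENCODE M21. Named members were Rpl29, Rps29, 5 members at either end of the log2 ratio, 5 at either end of the WT UMIs, the copies and their partners, and the 6 with the largest SD of make-up, and of each other list the 2 highest and 2 lowest. Some items that this rule names are not reported here. Malat1, Gm10076, Gm3550, Col2a1 and Ibsp, the leading genes of clusters and further members that illustrate a count were named after their values were seen. Scrublet (scanpy 1.11.5) called 0 doublets by its threshold, so 239 WT and 462 mutant barcodes with the highest scores were removed in 1 alternative. Ratios and naming were tested on simulated data.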

Additional observations from a re-analysis of the deposited data

Results flagged for a closer look

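Barcodes that did not pass the cell filter, which the comparisons do not use, were counted for the members that differed most. In the 2089 such barcodes of the mutant library Rps29 stood at 374 CPM (360 to 387), above the 178 CPM (167 to 190) in the 1357 of WT. Rpl38 stood at 175 CPM (166 to 185) in the mutant library and 114 CPM (105 to 124) in WT. Rps28 differed little, with 113 CPM (106 to 121) in the mutant library and 99.4 CPM (91.0 to 108) in WT, and these intervals overlapped. Rpl29 stood at 1.48 and 89.1 CPM there. The direction was the one seen in the kept cells, for Rps28 within counting error. Ribosomal protein genes took 0.759% of the UMIs of these barcodes in the mutant library and 1.43% in WT.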

How the results depend on the processing

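Each value rests on 1 library per genotype, so the ranges below show the effect of processing and not of biological variation. No paired analysis was possible because each genotype has 1 library. A value was counted as moved when it left its counting interval, which is narrow at this depth, and a median over members when it moved by more than the counting error of their summed UMIs. The direction of the ratios over all kept cells did not turn under the alternatives run on them. The share was lower in the mutant library in 12 of 13 types, and in 13 of 13 with the clusters mostly of 1 library kept (chosen after seeing the data), where the erythroid exception was lost. The cause of each move was not tested.

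Over all kept cells, the log2 ratio of Rps29 (1.29) was 1.24 with a filter of 200 genes and 20% mitochondrial UMIs, 1.25 with all deposited barcodes, 1.35 with ribosomal protein, mitochondrial and haemoglobin genes left out of the denominator, 1.15 as a mean over cells, 1.33 with equal weight to each cell type, 1.37 without the clusters mostly of 1 library and 1.199 with cells thinned to 2000 UMIs. The last 2 alternatives were chosen after seeing the data. Rpl29 (-5.35) moved to -5.15 as a mean over cells and -5.49 with equal weight to each type. The median of the members (-0.38) was, in the same order, -0.45, -0.44, -0.33, -0.44, -0.42, -0.34 and -0.43, and it was -0.39 with 1000 genes and 5% and -0.36 without the highest doublet scores. The difference of short and long members was taken without Rpl29 and Rps29, unlike the medians by protein length given above. This difference (0.79) was 0.79 with 200 genes and 20%, 0.80 with 1000 genes and 5%, 0.79 with all barcodes and 0.84 as a mean over cells. It was 0.81 with equal weight, 0.77 without the clusters mostly of 1 library and 0.86 when thinned. The count of members at least 2-fold lower (2) was 1, Rpl29, with 1000 genes and 5%, without the highest doublet scores, when thinned and with a minimum of 1000 UMIs. At 1.5-fold, 10 members were lower and 4 higher. The share of all genes past that limit was not taken, so nothing is read from these counts.

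By cell type, the lowest Rps29 log2 ratio (1.08) was 0.84 when clusters were formed with ribosomal protein genes, the highest (1.66) was 1.60 with 30 principal components and 1.60 with types taken from the markers of each cell, and the lowest Rpl29 log2 ratio (-6.66) was -5.60 with the last. The share in granulocyte-monocyte progenitors (15.6% and 11.6%) was 15.4% and 11.4% with clusters formed with ribosomal protein genes, 15.7% and 11.9% without integration, 16.9% and 14.4% with 30 components, 15.999% and 12.1% without mitochondrial and haemoglobin UMIs, and 13.1% and 10.1% as a median over cells. In Schwann cells the WT share (3.75%) was 3.79% with 30 components, 3.91% without those UMIs and 3.45% as a median, and the mutant share (2.90%) was 3.00% without those UMIs, 2.75% as a median and 2.98% with types from each cell. The deviation of Rps29 in monocytes and inflammatory macrophages (0.41) was 0.13 with types from each cell, and Rpl22l1 in granulocyte-monocyte progenitors (23.8%) was 25.9% with 30 components. Cells with an Rpl29 UMI (48.7% and 2.23%) were 31.8% and 1.10% when thinned to 1000 UMIs and 70.2% and 9.80% without thinning. The other 78 values stayed within their limits. Clustering without integration named no monocytes, and the per-cell types gave no granulocyte-monocyte progenitors, so those values are missing.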
